A study of Mus musculus with 7 samples.

Results

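The genes described here are 34 immediate early and stress-induced genes of the mouse, taken by their symbols from the 24421 rows of a gene count table; all 34 symbols were present and all 34 passed the filter on low counts, among 13545 genes that did. The table holds polyadenylated RNA from 7 tumours of separately named mice, labelled week 4. All 7 mice received anti-PD-1, an antibody against an inhibitory receptor of T cells. The 3 control mice also received anti-KLH, an antibody to a mollusc protein that mice lack, and the 4 others anti-LAIR1, an antibody to a collagen-binding inhibitory receptor of leukocytes. The series text describes tumours of the line 344SQ, derived from mice carrying K-rasLA1/+p53R172H∆g/+, grown under the skin of young adult 129/Sv mice of both sexes, and lung tumours of KrasLSL-G12D/p53fl/fl mice induced by adenovirus carrying Cre. It gives doses of 10 mg/kg for anti-LAIR and 8 mg/kg for anti-PD-1. The labels do not say which of these a library came from, nor the sex, age or processing day of a mouse. Mouse names carry the prefixes LOHM and KWM for controls and WTSV for every anti-LAIR1 animal, so whatever these prefixes mean cannot be told apart from the antibody.

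Immediate early genes are transcribed within minutes of a stimulus, by factors already present in the cell such as SRF, CREB and NF-kB, and need no new protein synthesis. Many encode transcription factors (the Fos, Jun, EGR, NR4A and Krüppel-like families), and others encode brakes that end the same signals, such as the phosphatase DUSP1, the mRNA decay protein ZFP36 and the NF-kB inhibitors. Their mRNAs are short-lived, and they are known to respond to growth factors, cytokines, stretch, heat and the handling of tissue. The inducible HSP70 chaperones are driven by the heat shock factor HSF1.

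The first question was whether anti-LAIR1 added to anti-PD-1 changed these genes. None of the 34 passed edgeR's quasi-likelihood test at an adjusted p of 0.05, and neither did any of the 13545 genes tested (0%), of which 697 had an unadjusted p under 0.05. Values are given as CPM, the counts of a gene scaled to a fixed sum per library, on TMM-scaled library totals, and differences as log2 fold changes, anti-LAIR1 minus control. The most separated members were low with anti-LAIR1: the ERK and p38 phosphatase Dusp1, the survival gene Ier3, the NF-kB inhibitor Tnfaip3 and the matricellular gene Cyr61 had no overlap between groups. Of the 34 members, 5 (14.7%) had an unadjusted p under 0.05 with a lower level, against 1.63% of all genes tested, and 1 (2.94%) with a higher level, against 3.51%. The groups did not overlap for 4 members (11.8%) on the lower side, against 2.51% of all genes, and for 1 (2.94%) on the higher side, against 3.06%. The log2 fold change was below 0 for 23 members (67.6%), against 50.9% of all genes, with a median of -0.12 over the members and -0.0028 over all genes. These shares are descriptions, since the list was drawn up with earlier results of these data known. DESeq2 called 47 genes and limma-voom 0, and neither called any member; the smallest adjusted p of a member was 0.624 by edgeR and 0.0531 by DESeq2, both for Dusp1. The members' median moved to -0.06 without control replicate 1, -0.06 without control replicate 3 and -0.07 when anti-LAIR1 replicate 4 was left out, and to -0.05 with limma-voom.

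**Figure D1:**
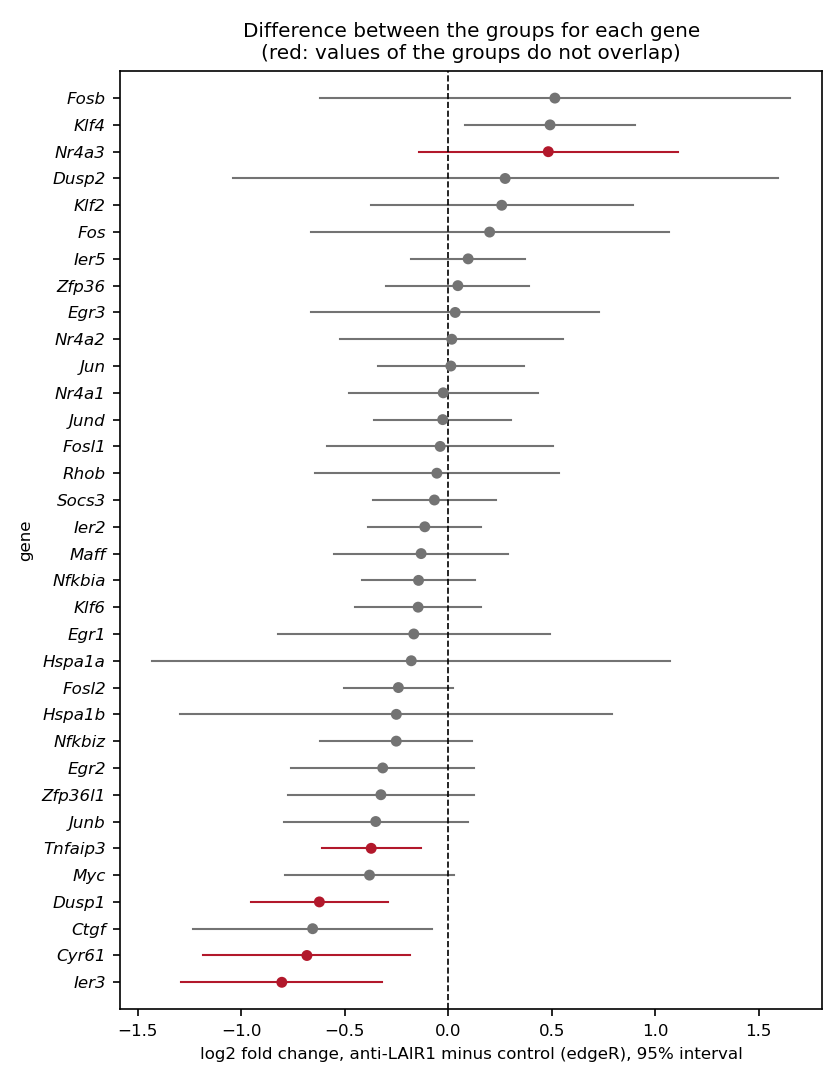
Log2 fold change of each of the 34 genes (x axis, anti-LAIR1 minus control) with its 95% interval from the edgeR fit of 3 control and 4 anti-LAIR1 libraries, ordered by value. The interval spans 0 for 28 genes; red marks the 5 genes whose library values do not overlap between groups, of which Nr4a3 is the 1 on the higher side.

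Library totals ran from 9879762 to 26255727 counts, so that 3 counts were worth from 0.119 to 0.305 CPM. Carcinoma markers (Epcam, Cdh1, keratins and claudins) summed to 4747 to 5885 CPM over the 7 libraries, most of it Cdh1 and keratins. Epcam was at 11.9 to 26.6 CPM. The claudins were near the floor, Cldn4 at 0.0658 to 1.73 CPM and Cldn7 at 0 to 0.527 CPM, with 0 in control replicates 1 and 2. The lung lineage factor Nkx2-1 stood at 129 to 210 CPM, and the 8 lung epithelial markers together summed to 1239 to 3349 CPM, most of it Sftpb at 1094 to 3103 CPM. Within that list Ager was at 5.19 to 25.4 CPM, Sftpc at most 0.524 CPM and Scgb1a1 at 0 in 6 of 7 libraries. The summed level of 12 pan-leukocyte markers was 241 to 265 CPM in controls and 321 to 409 CPM with anti-LAIR1, without overlap and with 12 of 12 fold changes above 0, and that of 10 endothelial markers 135 to 168 against 176 to 206 CPM. Fibroblast markers overlapped, at 3108 to 3373 against 2225 to 3839 CPM, as did macrophage markers, at 471 to 618 against 593 to 739.6 CPM, although all 12 macrophage fold changes were above 0 (median 0.44). Striated muscle markers summed to 6.18 to 9.67 CPM in controls and 11.04 to 125 CPM with anti-LAIR1, and keratinocyte markers to 25.9 to 138 against 14.9 to 25.8 CPM, both without overlap. Each separation was narrow at 1 end. The muscle sum of anti-LAIR1 replicate 2, 11.04 CPM, lay close to the controls. The keratinocyte sum of 138 CPM was that of control replicate 3 alone. Control replicate 2, at 25.88 CPM, lay just above anti-LAIR1 replicate 3, at 25.82 CPM. The part of these marker genes in the results below was not tested. In bulk tissue, fewer cells of a type and less RNA per cell cannot be told apart.

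Among the Fos family, which form AP-1 dimers with Jun proteins, Fosl2 had the highest level in CPM and Fos the highest per kilobase of exon. Fos stood at 30.2, 37.9 and 55.1 CPM in control replicates 1 to 3 and at 65.4, 57.5, 42.6 and 21.7 CPM in anti-LAIR1 replicates 1 to 4. The anti-LAIR1 group thus held both the highest and the lowest library, and the control values lay between them. Its log2 fold change was 0.20, with a 95% interval from -0.67 to 1.07. Fosb, the closest relative of Fos, showed the same spread more widely, at 34.6, 20.6 and 40.0 CPM in controls and 55.0, 69.4, 41.4 and 15.2 CPM with anti-LAIR1. Its log2 fold change of 0.52 had an interval from -0.62 to 1.65. Fosl2, a more stable Fos relative, stood at 199, 168 and 149 CPM against 153, 161, 141 and 128 CPM, a log2 fold change of -0.24 (SE 0.12, unadjusted p = 0.0684 and adjusted p = 0.980 by edgeR) that was -0.13 with control replicate 1 left out. Fosl1, a target of sustained ERK signalling in carcinoma cells, ranged from 19.3 to 39.0 CPM with overlapping groups. In the GENCODE M21 annotation 48.3% of the 100-base windows of Fosl1 transcripts also lie in Ccdc85b on the opposite strand, so its counts depend on a strand setting that the labels leave unstated.

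Jund and Junb had the highest levels per kilobase of exon among the transcription factors here. Jund, the family's constitutive member, stood at 270.1, 199 and 230.5 CPM in controls and 255, 264, 215 and 182 CPM with anti-LAIR1, and Junb, its serum-inducible relative, at 268, 218 and 208 against 143, 248, 189 and 147 CPM. Jund averaged 138 CPM per kilobase over all libraries and Junb 88.2. The log2 fold change of Jund was -0.03, with an interval from -0.36 to 0.30, and that of Junb -0.35 (SE 0.20, adjusted p = 0.980 by edgeR). Control and treated values of both overlapped. For Jund, 43.5% of 100-base windows lie in an annotated gene on the opposite strand. Jun itself, the founding member, lay between 34.3 and 51.4 CPM with a log2 fold change of 0.01. Maff, a small Maf protein that pairs with other basic leucine zipper factors, stood at 57.7, 45.9 and 38.1 CPM against 47.1, 52.8, 40.6 and 32.6 CPM, with replicate 4 the 1 treated value outside the control range.

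The 3 EGR zinc finger factors differed in level, and each had a larger SD among treated than among control tumours. Egr1, the member most used as a readout of ERK and SRF activity, stood at 118, 99.3 and 109 CPM in controls and 139, 114, 80.1 and 55.2 CPM with anti-LAIR1. The control SD was 9.54 CPM and the anti-LAIR1 SD 36.9 CPM, and the log2 fold change was -0.17 with an interval from -0.82 to 0.49. Egr3, a target of calcium signalling in lymphocytes, had a control SD of 0.380 CPM around 10.2 and an anti-LAIR1 SD of 4.53 around 10.5. Egr2 ranged from 10.8 to 19.5 CPM, with a log2 fold change of -0.32 (interval -0.76 to 0.12). The difference in spread between the groups was not tested.

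Of the 3 IER genes, Ier3 stood apart. Ier3 (chromosome 17, 35821684 to 35822923, GRCm38), an inhibitor of apoptosis induced by NF-kB and growth factors, stood at 39.6, 50.2 and 54.9 CPM in controls and at 19.9, 34.1, 34.2 and 22.1 CPM with anti-LAIR1. All 4 treated values lay below every control, and replicates 1 and 4 lay well under the other 2. The group values were 48.2 ± 7.83 CPM (SD, n = 3) and 27.6 ± 7.62 CPM (SD, n = 4). The log2 fold change of -0.80 (SE 0.21), the lowest of all 34, had an unadjusted p of 0.00466 and an adjusted p of 0.701 by edgeR, and lay between -0.94 and -0.68 over 15 alternative settings. Ier2 and Ier5, nuclear proteins of a separate family, overlapped between groups. Ier2 ranged from 35.9 to 52.2 CPM (log2 fold change -0.11) and Ier5 from 14.9 to 18.4 CPM (log2 fold change 0.10), with the smallest spread of any member.

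Dusp1, which dephosphorylates p38, JNK and ERK and is among the first genes they induce, had the smallest p of the 34. Dusp1 (chromosome 17, 26505590 to 26562128, GRCm38, in a GENCODE model that overlaps Ergic1 on the opposite strand) stood at 70.2, 52.4 and 51.0 CPM in controls and 36.1, 45.5, 36.4 and 32.7 CPM with anti-LAIR1. Every treated tumour was below every control, with control replicate 1 the highest library. The means were 57.9 ± 10.7 CPM (SD, n = 3) against 37.7 ± 5.48 CPM (SD, n = 4), a level 35.1% lower in the fit. The log2 fold change was -0.62 (SE 0.15, unadjusted p = 0.00195 and adjusted p = 0.624 by edgeR), between -0.72 and -0.46 over 15 alternatives. Dusp2, a phosphatase mainly of leukocytes, stood at 0.792, 1.12 and 0.305 CPM in controls and 0.593, 1.20, 0.345 and 1.53 CPM with anti-LAIR1. These values rest on 3 to 21 counts per library, and both groups held high and low libraries. Its log2 fold change of 0.27 had an interval from -1.04 to 1.59.

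The sequences before the RefSeq starts show which recognition letters these genes carry. RefSeq (GRCm38.p6) gave an entry for 27 of the 34 genes, and the 250 bases before the start were searched on both strands. The short form of the cyclic AMP response element, TGACG, was in 13 of 27 members (48.1%) and in 17.8% of 32851 promoters of the same length, and the full site, TGACGTCA, in 2 members (7.41%), Dusp1 and Maff, and 1.55% of all. The full site contains the short form. The kappa B site was in 7 members (25.9%), Ier3, Nfkbia and Tnfaip3 among them, and 3.90% of all, and the SP1 GC box, GGGCGG, in 24 members (88.9%) and 32.7% of all. A member with several starts was counted once for any of them, and the shares take no account of base composition. The GGAATG letters of TEAD sites were in 4 members (14.8%), Cyr61 among them, and 12.6% of all, and the AP-1 letters TGANTCA in 2 members (7.41%) and 6.75% of all. The serum response element (CArG box) was in 2 members (7.41%), Egr2 and Zfp36, and 1.47% of all. The EGR site was in 10 members (37%) and 4.7% of all, and the TATA box in 10 (37%) and 22.8%. The promoters of 3 members whose groups did not overlap are printed 5′ to 3′, each on the gene's own strand and ending at the base before the start. Capitals mark short and full cyclic AMP sites in Dusp1 (chr17:26508473-26508722, minus strand), a kappa B site and a TATA box in Ier3 (chr17:35821463-35821712, plus strand), and a TEAD site and a TATA box in Cyr61 (chr3:145649986-145650235, minus strand). Not every site found is marked. Cyr61 also holds the short cyclic AMP site, read on the other strand and left in lower case.
Dusp1: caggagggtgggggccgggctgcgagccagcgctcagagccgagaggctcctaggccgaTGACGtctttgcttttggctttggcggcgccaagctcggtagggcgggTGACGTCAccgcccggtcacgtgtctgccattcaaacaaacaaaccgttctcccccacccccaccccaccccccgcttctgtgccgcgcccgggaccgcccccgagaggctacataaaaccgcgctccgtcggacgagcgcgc
Ier3: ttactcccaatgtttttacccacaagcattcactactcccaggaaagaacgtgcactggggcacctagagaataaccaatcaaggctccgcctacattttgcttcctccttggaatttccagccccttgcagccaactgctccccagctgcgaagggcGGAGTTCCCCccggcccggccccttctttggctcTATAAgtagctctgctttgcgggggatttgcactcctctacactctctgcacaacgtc
Cyr61: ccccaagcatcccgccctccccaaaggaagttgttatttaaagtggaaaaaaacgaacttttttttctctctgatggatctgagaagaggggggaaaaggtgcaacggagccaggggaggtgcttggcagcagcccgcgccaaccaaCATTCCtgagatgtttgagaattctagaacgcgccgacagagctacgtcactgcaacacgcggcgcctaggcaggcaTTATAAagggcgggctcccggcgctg
The match is one of letters, and no binding was measured.

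The NR4A orphan nuclear receptors, which antigen receptor signalling induces in T cells, had log2 fold changes near 0 apart from Nr4a3. Nr4a3 had low counts, and stood at 1.58, 1.80 and 1.63 CPM in controls and 2.11, 2.53, 2.07 and 2.62 CPM with anti-LAIR1. It was the 1 member with every treated value above every control. Its log2 fold change of 0.48 (SE 0.28) had an unadjusted p of 0.115 and an adjusted p of 0.980 by edgeR. The control library with the smallest total held 16 counts of it. T and NK cell markers summed to 4.86 to 11.4 CPM in controls and 6.99 to 28.8 CPM with anti-LAIR1; their part in the Nr4a3 values was not tested. Nr4a1 ranged from 16.9 to 28.7 CPM and Nr4a2 from 15.1 to 29.6 CPM, with log2 fold changes of -0.02 and 0.02.

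Among the Krüppel-like factors, Klf4 was the 1 member with an unadjusted p under 0.05 on the higher side. Klf4, a factor of epithelial differentiation and of quiescent endothelium, stood at 59.3, 44.1 and 51.7 CPM in controls and 87.1, 85.3, 64.2 and 54.5 CPM with anti-LAIR1. Replicates 1 to 3 lay above all controls and replicate 4 inside their range. The means were 51.7 ± 7.62 CPM (SD, n = 3) and 72.8 ± 16.0 CPM (SD, n = 4), with a log2 fold change of 0.49 (SE 0.18, unadjusted p = 0.0236 and adjusted p = 0.933 by edgeR). Klf2, a flow-responsive factor of endothelium that also keeps T cells quiescent, ranged from 15.7 to 32.9 CPM with a log2 fold change of 0.26 (interval -0.37 to 0.89). Leaving out 1 library moved it to between 0.05 (control replicate 1) and 0.55 (control replicate 3). The endothelial marker sum given above also separated the groups, with 9 of its 10 genes above 0 and Esam below (log2 fold change -0.15). Whether that sum accounts for the Klf4 values was not tested. Klf6, a ubiquitous injury-response factor, was the most abundant of the 3 at 315, 335 and 428 CPM against 337, 348, 352 and 262 CPM. Its groups overlapped, and its log2 fold change was -0.15.

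Of the genes that shorten mRNA lives, Zfp36l1 was far more abundant than Zfp36, at an average of 107 against 7.62 CPM per kilobase of exon. Zfp36l1 stood at 479, 349.7 and 258 CPM in controls and 297, 277, 244 and 339 CPM with anti-LAIR1. Control replicate 1 was the highest library and the rest overlapped, with a log2 fold change of -0.33 (SE 0.20, adjusted p = 0.992 by edgeR). The value was -0.076 with control replicate 1 left out and -0.52 with control replicate 3 left out. Of its 100-base windows, 47.6% also occur in a processed copy or an opposite-strand gene, so its level is uncertain. Zfp36, which destabilises Tnf mRNA, ranged from 21.2 to 30.8 CPM. Socs3, the inhibitor induced by STAT3, stood at 66.8, 55.1 and 59.9 CPM against 51.4, 70.8, 50.7 and 58.7 CPM, a log2 fold change of -0.07. Myc, the growth-promoting factor, stood at 121, 132 and 189 CPM against 89.0, 132, 124 and 106 CPM. Its groups overlapped, with a log2 fold change of -0.38 (SE 0.18, unadjusted p = 0.0654 and adjusted p = 0.978 by edgeR), and -0.17 with control replicate 3, its highest library, left out.

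Cyr61 and Ctgf, matricellular proteins that TGF beta, SRF and the YAP and TEAD factors induce, both had an unadjusted p under 0.05 on the lower side. Cyr61 (chromosome 3, 145646976 to 145649981) stood at 214, 157 and 124 CPM in controls and 111, 123, 105 and 72.5 CPM with anti-LAIR1. The groups did not overlap, but control replicate 3 and anti-LAIR1 replicate 2 differed by little. The means were 165 ± 45.3 CPM (SD, n = 3) and 103 ± 21.7 CPM (SD, n = 4), with a log2 fold change of -0.68 (SE 0.22, unadjusted p = 0.0135 and adjusted p = 0.879 by edgeR). Ctgf (chromosome 10, 24595442 to 24598683) stood at 384, 284 and 263 CPM against 228, 265, 167 and 128 CPM. It missed separation by anti-LAIR1 replicate 2 alone, which lay just above control replicate 3. Its log2 fold change was -0.66 (SE 0.25, unadjusted p = 0.0311 and adjusted p = 0.944 by edgeR). Both genes had their highest value in control replicate 1 and their lowest in anti-LAIR1 replicate 4. Anti-LAIR1 replicate 4 also had the lowest fibroblast marker sum, 2225 CPM; its part was not tested. Without that library the log2 fold changes were -0.55 for Cyr61 and -0.50 for Ctgf, and with control replicate 1 left out instead they were -0.46 and -0.48.

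**Figure D2:**
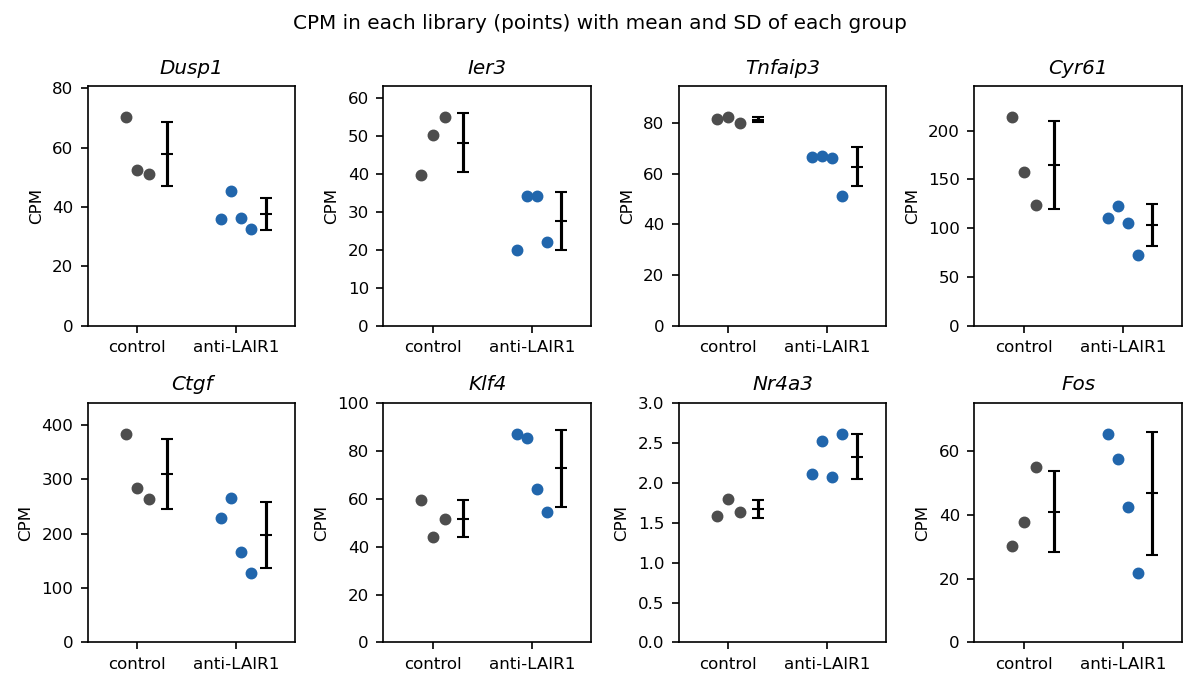
CPM (y axis, from 0) of 8 genes in each library, control (grey, n = 3) and anti-LAIR1 (blue, n = 4), with the mean and SD of each group beside the points. Dusp1, Ier3, Tnfaip3 and Cyr61 show 4 treated values under all controls, Ctgf and Klf4 nearly separated groups, Nr4a3 higher treated values at a low level, and Fos the lowest and highest value both in the treated group.

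The inducible HSP70 genes Hspa1a and Hspa1b, stress chaperones that lie close together on chromosome 17, varied more between tumours than between groups. Their promoters are printed to show how alike the 2 genes are. Over the 250 bases before their starts, 247 positions (98.8%) hold the same base. Capitals mark a heat shock element, searched as GAANNTTC on both strands, which 4 members (14.8%) and 6.69% of all promoters hold. Both lie on the minus strand, Hspa1a at chr17:34972157-34972406 and Hspa1b at chr17:34959239-34959488 (RefSeq, GRCm38.p6).
Hspa1a: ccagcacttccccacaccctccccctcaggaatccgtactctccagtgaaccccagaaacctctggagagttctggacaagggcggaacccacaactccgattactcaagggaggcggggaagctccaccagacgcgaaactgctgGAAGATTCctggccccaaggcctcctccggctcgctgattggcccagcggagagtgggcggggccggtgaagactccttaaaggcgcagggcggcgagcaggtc
Hspa1b: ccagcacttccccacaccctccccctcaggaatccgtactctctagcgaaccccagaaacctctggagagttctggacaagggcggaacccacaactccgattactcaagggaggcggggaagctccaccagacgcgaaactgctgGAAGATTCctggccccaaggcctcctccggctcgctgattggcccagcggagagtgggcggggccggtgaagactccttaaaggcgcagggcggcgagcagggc
The transcripts are alike too: 56.5% of the 100-base windows of Hspa1a and 49.9% of those of Hspa1b occur in another annotated gene, so reads cannot be assigned with certainty and the sum of the pair is used here. The sum was 91.3, 47.4 and 28.6 CPM in control replicates 1 to 3 and 78.4, 54.4, 32.2 and 28.0 CPM in anti-LAIR1 replicates 1 to 4. The groups covered much the same range. The log2 difference was -0.17, with an exact two-sided permutation p of 0.771 over 35 assignments, where 0.0286 is the smallest possible. Its sign turned when control replicate 1 was left out (0.27) and when anti-LAIR1 replicate 4 was (0.05). Hspa1a made up from 29.2% to 41.0% of the pair in every library.

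The 3 NF-kB feedback inhibitors had log2 fold changes below 0, as did 50.9% of all genes tested. For 1 of the 3 the groups did not overlap, on the lower side, against 2.51% of all genes. Tnfaip3 (chromosome 10, 19000910 to 19015657), the ubiquitin-editing enzyme A20, stood at 81.5, 82.2 and 80.1 CPM in controls and 66.8, 66.9, 66.3 and 51.2 CPM with anti-LAIR1. All treated values lay below all controls, and values within each group were close together apart from anti-LAIR1 replicate 4. The means were 81.3 ± 1.07 CPM (SD, n = 3) and 62.8 ± 7.73 CPM (SD, n = 4). The log2 fold change was -0.37 (SE 0.11, unadjusted p = 0.00623 and adjusted p = 0.753 by edgeR), and from -0.40 to -0.29 over 15 alternatives. Nfkbiz, a nuclear IkB protein required for IL-17 and IL-6 responses, ranged from 81.9 to 152 CPM (log2 fold change -0.25, interval -0.62 to 0.12). Nfkbia, the cytoplasmic inhibitor IkB alpha, ranged from 42.3 to 57.5 CPM (log2 fold change -0.14). Both overlapped between groups. The pan-leukocyte marker sum given above was higher in every treated library than in any control, and its part in the Tnfaip3 values was not tested.

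The members differed from one another in how far tumours of one group spread. The SD of log2 CPM within groups had a median of 0.31 over the 34 members and 0.20 over all genes tested, and was above that overall median for 27 members. The ratio of the highest to the lowest library exceeded 2 for 15 members (44.1%) and for 25.3% of all genes. Hspa1a, Fosb, Dusp2, Hspa1b and Fos spread most, with SDs of 0.86, 0.81, 0.80, 0.70 and 0.62. For Dusp2 the counts are few, whereas Fos and Fosb are well counted. Reads of Hspa1a and Hspa1b cannot be assigned between them with certainty, so their 2 SDs are not separate observations. Ier5, Nr4a3 and Tnfaip3 spread least, with SDs of 0.10, 0.14 and 0.15. Nr4a3 rests on 16 to 40 counts per library and its edgeR SE was 0.28, so its small SD does not show a steady level.

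**Figure D3:**
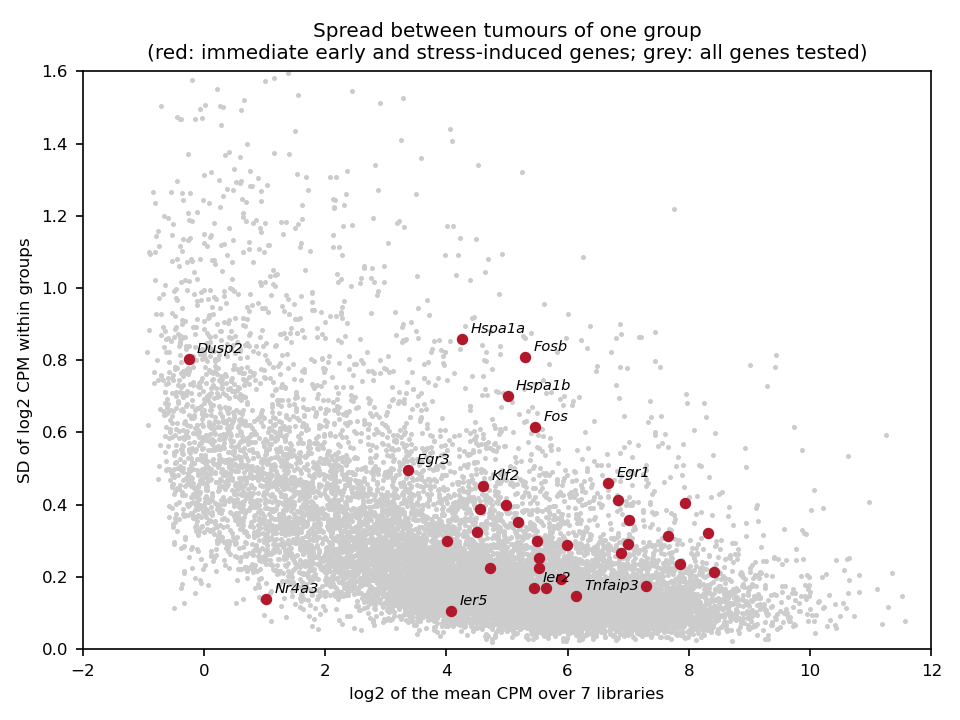
SD of log2 CPM within groups (y axis, pooled over 3 control and 4 anti-LAIR1 libraries) against the log2 of the mean CPM (x axis) for all genes tested (grey) and the 34 members (red); 31 genes lie above the top of the axis at 1.6 and 8 outside the level axis. Hspa1a, Fosb, Hspa1b and Fos lie above most genes of their level, while Ier5 has the smallest SD of the members, 0.10.

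The same few libraries recurred at the ends of the range. Anti-LAIR1 replicate 4 was the lowest of all 7 libraries for 18 members (52.9%), against 21.6% of all genes tested, and anti-LAIR1 replicate 2 was the highest of its group for 18 members (52.9%), against 21.2% of all genes. Replicate 2 was the highest of all 7 for 8 members (23.5%), against 9.94% of all genes. It also had the highest adipocyte marker sum, 115 CPM against 8.75 to 24.0 CPM in the other libraries. Fos, Fosb, Jun, Jund, Egr1, Egr3, Nr4a1, Nr4a2, Dusp1, Cyr61 and Ctgf were among the 18 lowest in replicate 4. Dusp2 and Nr4a3 were instead highest there, and Fosl1 and Zfp36l1 had their highest treated value there. Among the controls, replicate 1 was the highest of all 7 libraries for 11 members (32.4%), Cyr61, Ctgf, Zfp36l1, Junb, Dusp1 and both HSP70 genes among them, against 18.5% of all genes. Control replicate 3 was the highest for 7 members (20.6%), including Myc, Ier3 and Klf6, against 14.3% of all genes. That library also had the highest keratinocyte marker sum, 138 CPM against 14.9 to 36.6 CPM in the other libraries. Anti-LAIR1 replicate 4 also stood apart in lung epithelial genes: Sftpb, which encodes surfactant protein B, was at 3103 CPM there and at 1094 to 1582 CPM elsewhere, and Ager, a gene of flat alveolar cells, at 25.4 CPM against 5.19 to 10.7 CPM. The part of tissue make-up in these values was not tested.

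**Figure D4:**
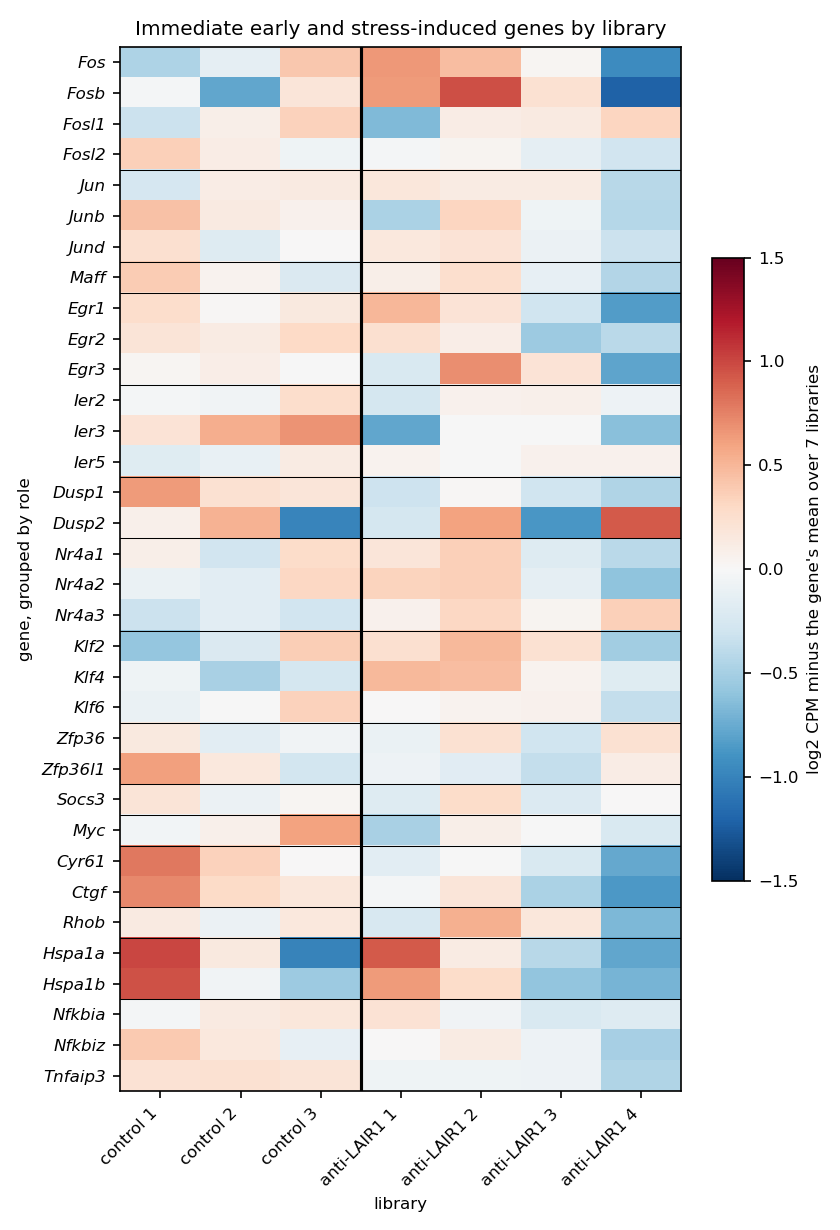
Log2 CPM of each of the 34 genes (rows, grouped by role) in each of the 7 libraries (columns), as the difference from the gene's mean over the libraries; red is above and blue below. Anti-LAIR1 replicate 4 is below the mean for all rows except Dusp2, Nr4a3, Fosl1, Zfp36, Zfp36l1, Ier5 and Socs3, and control replicate 1 is red for Cyr61, Ctgf, Zfp36l1 and the HSP70 genes.

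Further genes of the same pathways were taken from fixed lists, and none passed edgeR's test either. Of 30 other immediate early genes tested, 18 were below 0 with a median log2 fold change of -0.10, 4 had an unadjusted p under 0.05 on the lower side and 1 on the higher. Over all genes tested these shares were 50.9%, 1.63% and 3.51%. The share below 0 thus lay near that of all genes, and the share with a low p on the lower side above it. Groups did not overlap for 3 of the 30 on the lower side and 0 on the higher, against 2.51% and 3.06% of all genes. These shares too are descriptions. The smallest p belonged to Cebpd, a factor induced by cytokines, at 49.2, 34.2 and 29.0 CPM in controls and 19.0, 27.1, 19.5 and 27.9 CPM with anti-LAIR1. Its groups did not overlap (log2 fold change -0.69, adjusted p = 0.856 by edgeR). Atf3, named after its values were seen, stood at 23.6, 21.6 and 18.6 CPM in controls and 45.8, 39.8, 26.5 and 15.5 CPM with anti-LAIR1, so that its treated values spread like those of Fos and Egr1. Of 16 YAP and SRF cytoskeletal targets, 14 were below 0 with a median of -0.16, and 2 had an unadjusted p under 0.05 on the lower side, against 50.9% and 1.63% of all genes. Ptpn14, a YAP inhibitor and YAP target, had the smallest p there, at 240.0, 193 and 174 CPM against 166, 160.4, 167 and 160.4 CPM (log2 fold change -0.31, adjusted p = 0.933 by edgeR). The medians of the remaining lists lay closer to 0. The 20 heat shock chaperones tested had a median of -0.03 with 0 at an unadjusted p under 0.05, and Hspa4l, an HSP110 chaperone, had the smallest p. It stood at 252, 254 and 251 CPM against 257, 249.7, 227 and 177 CPM, with replicate 4 the lowest, and its log2 fold change was -0.15. The 14 ERK phosphatase and Sprouty genes had a median of -0.02, with 0 at an unadjusted p under 0.05. Dusp6, the ERK-specific phosphatase, stood at 301, 297 and 347 CPM against 258, 311, 284 and 285 CPM, with overlapping groups.

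Of 31 upstream factors and kinases the median was -0.02, and the smallest p was that of Rps6ka1, an ERK-activated kinase. It stood at 80.4, 74.6 and 88.6 CPM against 88.2, 88.1, 99.6 and 119 CPM, overlapping, with a log2 fold change of 0.28. A list of 16 further NF-kB genes held subunits such as Rel and Relb as well as inhibitors. Of these 16 genes, 10 were above 0 and 6 below, where 50.9% of all genes were below. Their median was 0.03 beside -0.0028 over all genes. Tnfaip2 stood at 38.3, 36.2 and 39.8 CPM against 43.9, 49.2, 55.3 and 41.8 CPM, the groups not overlapping (log2 fold change 0.32, adjusted p = 0.933 by edgeR), the opposite side from Tnfaip3. Of 9 AP-1 and Maf partners tested, 7 were above 0 and 2 below, against 50.9% of all genes below, with a median of 0.05. Batf and Batf3 did not pass the count filter. The 1 gene of this list whose groups did not overlap was Mafg, on the lower side, where 2.51% of all genes did not overlap. Batf2, an interferon-induced partner of Jun proteins in macrophages, stood at 11.1, 4.94 and 4.68 CPM against 24.8, 13.0, 9.67 and 29.9 CPM (log2 fold change 1.44, SE 0.48, adjusted p = 0.933 by edgeR). Among relatives of the remaining members the smallest p was that of Socs1. Socs1, an inhibitor of interferon signalling, stood at 3.52, 1.87 and 3.16 CPM against 5.46, 5.06, 3.54 and 9.81 CPM, without overlap (log2 fold change 1.06, SE 0.37, adjusted p = 0.933 by edgeR), whereas its relative Socs3 overlapped.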

How the data were processed

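RNA from 7 mouse tumours was sequenced as directional polyadenylated libraries, single reads of 100 bases, per the labels' protocols. What the authors deposited is 1 table of unnormalised counts, with a row for each gene symbol and a column for each mouse. Trim Galore, STAR 2.7.6, featureCounts 2.0.1, edgeR 3.40.1 and the mm10 build are named in the submitters' processing notes; details not given in the sources used here include strand, annotation release and how multiply matching reads were handled. Groups followed the treatment label, and replicate numbers within a group only name libraries.

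From these counts, edgeR 4.0.16 (R 4.3.3) was run with filterByExpr at a minimum count of 10, TMM scaling, and a robust quasi-likelihood model over every library and gene kept, with Benjamini-Hochberg adjustment over 13545 genes. For log2 CPM, 2 counts were added as a prior. The members and lists were chosen with earlier results of these data known. Values in every library were given for the 8 members with the smallest p, the 6 with the highest mean CPM, the 6 with the largest ratio between libraries, every member with groups that did not overlap and 1 member of each role left, and for the gene with the smallest p in each further list; the near-identical HSP70 pair was given as its sum. Some list symbols were matched through older names. DESeq2 1.42.0, limma 3.58.1, other scalings and filters, thinning and leaving out each library were alternatives. Gene lengths and shared 100-base windows came from GENCODE M21 (GRCm38), promoters from RefSeq; figures used matplotlib 3.10.9. Each library came from its own mouse, and p-values measure the spread between these mice. For 1 member the library values are not reported here.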

Additional observations from a re-analysis of the deposited data

Results flagged for a closer look

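In the anti-LAIR1 group, 4 of the 34 genes (11.8%) had 1 tumour far from the other 3, the gap to the nearest tumour being above the 95% critical value of Dixon's test; the same held for 5.72% of all genes tested, and about 1 group in 20 would pass by chance. Jun, a subunit of AP-1, stood at 34.3 CPM in anti-LAIR1 replicate 4 and at 49.7 to 51.4 CPM in the others. Klf6, an injury-response factor, stood at 262 CPM in replicate 4 and at 337 to 352 CPM in the others. Tnfaip3, the NF-kB inhibitor A20, stood at 51.2 CPM in replicate 4 and at 66.3 to 66.9 CPM in the others, so that 3 of the 4 treated tumours lay within a narrow band below the controls. Ier5, a heat shock and growth factor target, stood at 16.8 CPM in replicate 2 and at 17.5 to 17.7 CPM in the others, a small difference within a gene of little spread. The control group has 3 tumours and was not tested in this way.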

How the results depend on the processing

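DESeq2 called 47 of 14205 genes where edgeR and limma-voom called 0, and leaving out 1 library gave 0 to 3 calls, with 3 without anti-LAIR1 replicate 2; no member was called under any of 15 alternatives. The members' median log2 fold change ran from -0.18 to -0.06 with 1 library left out. Of the 34 members, 19 kept their sign under every alternative and 15 changed it at least once. With limma-voom the log2 fold change was 0.12 for Jund, -0.071 for Dusp2, 0.17 for Nr4a1, 0.025 for Socs3 and 0.12 for Rhob. On library totals without TMM it was 0.0026 for Jund and 0.0031 for Nr4a1, and in counts thinned to the smallest total -0.034 for Egr3 and 0.081 for Nr4a1; the cause was not tested. With each library left out in turn it ran from -0.0073 to 0.46 for Fos, -0.21 to 0.14 for Fosl1, -0.11 to 0.13 for Jun, -0.13 to 0.089 for Jund, -0.26 to 0.037 for Maff, -0.39 to 0.025 for Egr1 and -0.26 to 0.24 for Egr3. It ran from -0.075 to 0.64 for Dusp2, -0.16 to 0.098 for Nr4a1, -0.11 to 0.18 for Nr4a2, -0.027 to 0.14 for Zfp36, -0.18 to 0.0073 for Socs3 and -0.28 to 0.12 for Rhob. It ran from -0.60 to 0.41 for Hspa1a, -0.53 to 0.29 for Hspa1b and -0.57 to 0.27 for the sum of the HSP70 pair. Among members that kept their sign, leaving out 1 library moved Fosb between 0.23 and 0.80, Junb between -0.54 and -0.23, Egr2 between -0.45 and -0.20, Ier2 between -0.17 and -0.0094, Ier5 between 0.028 and 0.19, Klf6 between -0.24 and -0.0051, Nfkbia between -0.24 and -0.091 and Nfkbiz between -0.37 and -0.12. No paired analysis was possible because the labels carry no replicate numbers that the groups share. Counts were fewest for Dusp2 and Nr4a3, the 2 members with a mean under 10 CPM.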
